A study of Mus musculus with 6 samples.

Results

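The tumour necrosis factor (TNF) and TNF receptor superfamilies, with the TRAF adaptors and the genes named as TNF alpha-induced proteins, were followed in mouse breast tumour cells given microRNA-16. The members were all non-control array probes whose gene name in the scanner files begins with Tnfrsf, Tnfsf, Tnfaip or Traf and a digit, or is Tnf, Lta, Ltb, Ltbr, Cd40, Fas or Fasl. The rule uses names only and no measured value. It found 80 of the 41174 probes on the array, which stand for 60 of 28786 genes. Of these, 53 probes of 44 genes were bright enough to be tested, out of 16702 genes tested in all, and the other 16 members are named below. The name rule also took in Psmg2, listed in the files as Tnfsf5ip1, which encodes a proteasome assembly chaperone and is no TNF ligand.

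The cells were primary cultures of the C4HD tumour, an ErbB-2 positive mammary tumour of female BALB/c mice. The tumour arose under medroxyprogesterone acetate, a synthetic progestin, and was passaged in mice given that progestin. Epithelium-enriched fractions were prepared by repeated sedimentation, meant to remove fibroblasts, though fibroblast markers were still read in the controls, as given below. These fractions were transfected for 48 h with 30 nM of precursor RNA. It was either that of miR-16 (pre-miR-16) or a scrambled RNA from which no known mammalian miRNA is made (pre-miR-Control). There were 3 biological replicates of each group, all from this same tumour model and all transfected, so neither untreated cells nor another tumour was compared. Labelled RNA of each culture was read on a single-colour Agilent mouse array. The level of mature miR-16 was not measured in the values used here.

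TNF ligands are trimeric proteins, mostly anchored in the cell membrane, that bind receptors with cysteine-rich extracellular domains. Receptors with a death domain can start apoptosis, most other receptors recruit TRAF adaptors and switch on NF-kB and MAP kinases, and decoy receptors bind ligands without passing a signal on. In mammary tumours, TNF family signals pass between epithelium, macrophages and fibroblasts.

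miR-16 acts through its seed, bases 2 to 8 of the mature strand, shown in capitals. The mature mouse sequences, from RefSeq, are set beside those of relatives that carry the same seed, to show which part of the transfected RNA selects its targets.
mmu-miR-16-5p: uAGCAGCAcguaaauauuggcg
mmu-miR-15a-5p: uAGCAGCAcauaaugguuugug
mmu-miR-15b-5p: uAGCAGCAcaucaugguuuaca
mmu-miR-195a-5p: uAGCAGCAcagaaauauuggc
The complement of the seed, TGCTGCT, lay within 1 of the 80 probe sequences of the family (1.25%), a second probe of Tnfrsf10b, against 0.544% of all probes on the array. A probe covers a small stretch of its transcript, so a probe without these letters says nothing about the rest of the transcript.

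Promoter sequences were read because several members are textbook targets of NF-kB, the transcription factor that TNF receptors activate. The stretches shown are the 250 bases before the start of Ltb, with its single match to the kB consensus in capitals, and of Tnfaip2, a member that rose and whose stretch holds no match. Both are from RefSeq on GRCm38.p6, plus strand, at chr17:35194257-35194506 and chr12:111442411-111442660.
Ltb: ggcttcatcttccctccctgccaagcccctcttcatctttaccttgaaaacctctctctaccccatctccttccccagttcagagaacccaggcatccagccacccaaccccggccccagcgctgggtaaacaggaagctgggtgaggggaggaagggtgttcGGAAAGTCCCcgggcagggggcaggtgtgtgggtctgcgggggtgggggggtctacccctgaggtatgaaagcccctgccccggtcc
Tnfaip2: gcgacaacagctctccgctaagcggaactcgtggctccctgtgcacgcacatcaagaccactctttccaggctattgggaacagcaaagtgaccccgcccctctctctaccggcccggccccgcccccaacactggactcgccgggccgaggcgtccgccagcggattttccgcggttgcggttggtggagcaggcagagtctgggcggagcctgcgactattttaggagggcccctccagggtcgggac
A match to the kB consensus on either strand was found in 6 of 48 members that have a promoter entry (12.5%), against 4.46% of 27025 genes searched the same way. The 6 were Ltb, Tnfaip3, Tnfaip8l1, Tnfrsf8, Tnfrsf9 and Traf3. None of the 9 members with an entry that rose held a match, against 1 of 10 that fell, Tnfrsf9, and 4 of 17 that were not called. No promoter entry was found for Cd40, Cd70, Psmg2, Tnfaip8, Tnfrsf10b, Tnfrsf11b, Tnfrsf22, Tnfrsf26, Tnfsf12, Tnfsf4, Tnfsf9 and Traf3ip2. Among these, Cd40, Tnfrsf10b, Tnfrsf11b and Tnfrsf22 rose and none fell, so the counts cover all falls but only part of the rises. With so few members, the counts decide nothing about the rises. A match describes letters and is not a bound site.

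Values are log2 signals relative to the 75th percentile of the same array, so 0 is the signal of a spot brighter than 75% of the others and each unit is a doubling. A gene was called as risen or fallen at an adjusted p under 0.05 (limma, Benjamini-Hochberg adjustment over all genes tested). The 75th percentiles ran from 625 to 909 signal units, 57.2 to 64.0% of spots were well above background, and no spot was saturated. The arrays lay on 3 slides. Slide 1 held replicate 1 of both groups, slide 2 held pre-miR-Control replicates 2 and 3 with pre-miR-16 replicate 2, and slide 3 held pre-miR-16 replicate 3 alone. Among the pre-miR-16 arrays replicate 2 stood apart. It was the array farthest from the group median in 54.2% of all genes and in 31 of the 44 members tested (70.5%). Fibroblast, macrophage and epithelial markers also moved with the treatment, as given below beside the genes they move with.

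Of the 44 members tested, 13 rose and 10 fell after pre-miR-16, and 21 were not called. Over all genes, 15.9% rose and 33.2% fell, 49.1% together. Of the members, 29.5% rose and 22.7% fell. Their median log2 change was -0.08, against -0.20 over all genes. The groups did not overlap in any of the 23 called members, as in 99.6% of all rises and 99.8% of all falls. Of the 13 rises, 4 (Tnfaip6, Tnfrsf23, Tnfaip8l2 and Tnfsf15) were bright enough only after pre-miR-16, so they entered the test through the group in which they are high and their calls are no independent support. Among the 40 members well above background on all 6 arrays, 9 rose (22.5%) and 10 fell (25%), against 13.3% and 34.6% of all genes under that filter. A change of at least 1 log2 unit, with a call and no overlap, was seen upward in 10 members (22.7%, against 10.2% of all genes) and downward in 3 (6.82%, against 6.83%). The 10 include the same 4 dim members, and 6 of the 40 rose by as much (15%, against 6.89% of all genes under the stricter filter). With each probe tested on its own, 13 of 53 member probes rose and 12 fell, against 15.2% and 31.4% of all probes.

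The split between rises and falls depended on how arrays were scaled. Scaling to the spike-in control RNAs raised every gene by 0.38 log2 units. It gave 17 rises and 3 falls in the family, against 22% and 6.22% of all genes, where the falls that passed were Tnfsf10, Tnfrsf9 and Tnfrsf14. Without pre-miR-16 replicate 2, 14 members rose and 15 fell, against 20% and 34.8% of all genes. Changes below are from the 75th percentile scaling unless stated.

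**Figure D1:**
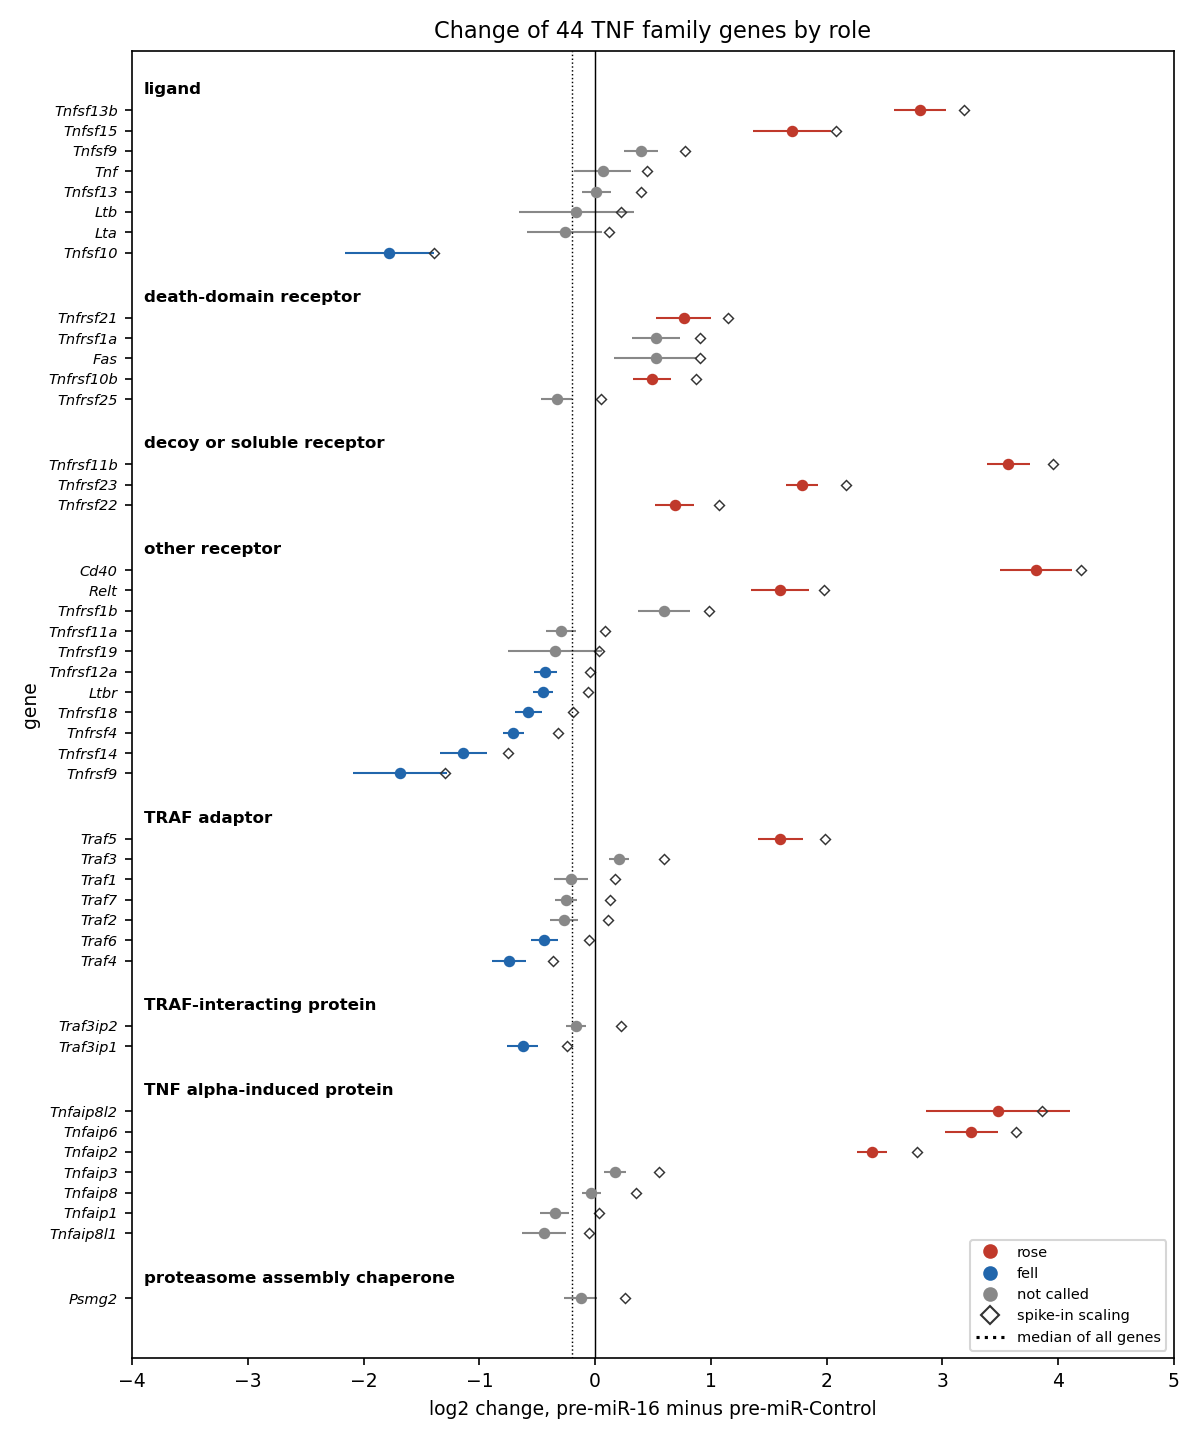
Log2 change (pre-miR-16 minus pre-miR-Control, horizontal axis) of each of the 44 members tested, grouped by role. Circles are fitted changes with 1 standard error, coloured by call. Open diamonds give the change under spike-in scaling, and the dotted line marks the median of all genes (-0.20). The 3 decoy or soluble receptors lie right of zero, whereas 6 of 11 other receptors are called as falls, against 33.2% of all genes.

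Among the ligands, 2 of 8 tested rose, Tnfsf13b and Tnfsf15, and 1 fell, Tnfsf10. That is 25% and 12.5%, against 15.9% and 33.2% of all genes. The median change of the ligands was 0.04. Tnf, Lta and Ltb, which founded the family and lie side by side on chromosome 17, were not called.

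Tnfsf13b encodes BAFF, the B cell survival factor made largely by myeloid and stromal cells. Its probe maps to chr8:10005713-10005772 (mm7, plus strand). The control arrays read -4.33, -4.69 and -5.06, and the pre-miR-16 arrays -2.01, -1.58 and -2.08. All 3 treated cultures lay above all 3 controls, by more than 2 units between the nearest arrays. The change was 2.81 (SE 0.22, limma adjusted p 0.000256). With another background correction (normexp) it was 1.41, still called (limma adjusted p 0.00023). Normexp was run with an offset of 50 signal units added to each spot, which by itself makes log changes of dim probes smaller. A second probe of Tnfsf13b, too dim to test, overlapped between the groups and changed by 0.25.

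Tnfsf15 encodes TL1A, the ligand of the death-domain receptor Tnfrsf25 (probe at chr4:63163641-63163700, mm7, minus strand). It read -5.10, -5.50 and -6.45 in the controls and -4.0, -3.84 and -4.11 after pre-miR-16. The groups did not overlap, but among the controls only replicate 1 was well above background. The fitted change of 1.70 (SE 0.34, limma adjusted p 0.00774) is against controls mostly not above background, and it came to 0.27 and lost its call with normexp (limma adjusted p 0.0948).

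Tnfsf10 encodes TRAIL, which starts apoptosis through death receptors. Its probe (chr3:27151623-27151682, mm7, plus strand) read -0.89, -0.71 and -0.59 in the controls and -2.94, -1.59 and -2.99 after pre-miR-16. All treated arrays were lower than all controls, and replicate 2 lay closest to them. The change was -1.78 (SE 0.38, limma adjusted p 0.0107), and it kept its call in all 20 alternatives of processing and left-out arrays. Within slide 1 the difference was -2.06 and within slide 2 it was -0.94.

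Tnf, the founding cytokine, read 1.56, 1.51 and 1.65 in the controls and 1.30, 2.22 and 1.39 after pre-miR-16. Ltb, which forms the membrane lymphotoxin heterotrimer with Lta, read 1.57, 1.77 and 1.71 against 1.03, 2.74 and 0.80. In both, pre-miR-16 replicate 2 was above every control array and the other treated arrays were below every control array. The fitted changes were 0.07 (SE 0.25, limma adjusted p 0.844) for Tnf and -0.16 (SE 0.50, limma adjusted p 0.807) for Ltb. Without replicate 2, Ltb changed by -0.77 (limma adjusted p 0.00419) and Tnf by -0.23 (limma adjusted p 0.0765). Lta changed by -0.26 (SE 0.32), with overlapping arrays. The probes of Ltb, Tnf and Lta lie at chr17:33292571-33292630, chr17:33296067-33296126 and chr17:33299547-33299606 (mm7), 3.44 and 3.42 kb apart.

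Tnfsf9, the 4-1BB ligand, changed by 0.40 (limma adjusted p 0.0624) and Tnfsf13, which encodes APRIL, by 0.01 (limma adjusted p 0.951). Neither was called, although Tnfsf9 rose under spike-in scaling (change 0.78, limma adjusted p 0.0154).

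The 3 decoy or soluble receptors all rose (against 15.9% of all genes). They are Tnfrsf11b, which encodes osteoprotegerin, a secreted receptor that binds RANK ligand and TRAIL, and Tnfrsf22 and Tnfrsf23, mouse decoy receptors for TRAIL. Their median change was 1.79, which is that of Tnfrsf23, a gene not well above background in the controls. With normexp the median of the 3 was 0.34.

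Tnfrsf11b (probe at chr15:54311325-54311384, mm7, minus strand) read -3.67, -4.06 and -3.52 in the controls and -0.25, 0.09 and -0.37 after pre-miR-16. The treated arrays exceeded the controls by more than 3 units throughout. The change of 3.57 (SE 0.19, limma adjusted p 4.02e-05) is an 11.9-fold rise in signal. It kept its call in all 20 alternatives, with a change of 3.44 without pre-miR-16 replicate 2.

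Tnfrsf23 (probe at chr7:140095804-140095863, mm7, minus strand) was not well above background in the controls and read -4.0, -3.95 and -4.03 after pre-miR-16. It was at least 2.50-fold higher after pre-miR-16 (limma adjusted p 0.000206). This bound sets the treated mean against the mean, over the control arrays, of the lowest signal of any probe well above background there, or of the probe's own signal where that is higher. Since Tnfrsf23 entered the test through the treated arrays alone, that p is no independent support. Normexp gave a change of 0.34 (limma adjusted p 0.0215). Tnfrsf22, 31 kb away in the same receptor cluster, rose by 0.69 (limma adjusted p 0.0169), and lost the call with normexp, with the authors' processed values and without pre-miR-Control replicate 1. Tnfrsf26, the third gene of that cluster, was too dim to test.

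Of the 5 death-domain receptors, all tested, 2 rose, Tnfrsf21 and Tnfrsf10b (40%, against 15.9% of all genes). None fell, against 33.2% of all genes (1 was lower at an unadjusted limma p under 0.05, Tnfrsf25). The median change of the 5 was 0.52. Tnfrsf10b encodes the TRAIL death receptor. It read -1.98, -2.21 and -2.16 against -1.64, -1.33 and -1.91. Its change of 0.49 (limma adjusted p 0.0489) was smaller than those of the larger rises and held in only 8 of 20 alternatives. With each probe tested on its own, its 3 kept probes changed by 0.49, 0.52 and 0.21. None was called (limma adjusted p 0.051, 0.0697 and 0.536). Tnfrsf21, death receptor 6, read 0.84, 0.58 and 0.53 against 1.68, 0.89 and 1.68. Here replicate 2 lay near the controls. The change was 0.77 (limma adjusted p 0.0381), and 1.03 (limma adjusted p 0.00183) without replicate 2. Tnfrsf21 lost its call in 8 alternatives, 5 of which left out an array.

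Tnfrsf1a, the main TNF receptor of epithelial cells, was not called. It read 3.20, 3.36 and 3.23 in the controls and 3.87, 3.35 and 4.14 after pre-miR-16. Replicate 2 lay among the controls and the other treated arrays above them. The change was 0.52 (limma adjusted p 0.0779). Without replicate 2 it was 0.74 (limma adjusted p 0.00461), and with spike-in scaling 0.91 (limma adjusted p 0.029). Fas changed by 0.52 (limma adjusted p 0.268), with overlapping arrays, and Tnfrsf25, the TL1A receptor, by -0.33 (limma adjusted p 0.0837).

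Among the 11 other receptors tested, 2 rose and 6 fell (18.2% and 54.5%, against 15.9% and 33.2% of all genes). Cd40 and Relt rose, and Tnfrsf9, Tnfrsf14, Tnfrsf4, Tnfrsf18, Ltbr and Tnfrsf12a fell. The median change was -0.43.

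Cd40 is the costimulatory receptor of antigen-presenting cells and the receptor of CD40 ligand. Its probe (chr2:164811455-164811514, mm7, plus strand) read -4.04, -5.05 and -5.01 in the controls and -1.0, -0.54 and -1.12 after pre-miR-16. All treated arrays were higher, by about 3 units at the nearest pair. The change of 3.81 (SE 0.31, limma adjusted p 0.000277) was larger than that of any other member at this setting. With normexp it came to 2.20 (limma adjusted p 4.29e-05), below Tnfrsf11b (2.45) and Tnfaip2 (2.24), and within slides 1 and 2 it was 3.04 and 4.49.

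Relt, listed in the files as Tnfrsf19l, encodes a TNF receptor found in lymphoid tissue. It read -4.17, -3.74 and -3.52 in the controls and -2.61, -1.81 and -2.23 after pre-miR-16, with no overlap. The change was 1.6 (SE 0.25, limma adjusted p 0.00346), and 0.82 with normexp (limma adjusted p 0.00342).

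Tnfrsf9 encodes 4-1BB, a costimulatory receptor of activated T cells. Its probe (chr4:149934539-149934598, mm7, plus strand) read -1.52, -1.38 and -1.56 in the controls and -3.58, -2.19 and -3.75 after pre-miR-16. All treated arrays were lower, and replicate 2 was again the nearest to the controls. The change was -1.69 (SE 0.41, limma adjusted p 0.0161). It was -2.18 without replicate 2, and the call was lost when pre-miR-Control replicate 2 or pre-miR-16 replicate 1 was left out. A second probe of Tnfrsf9, too dim to test, overlapped between the groups and changed by -0.16.

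Tnfrsf14 encodes HVEM, the receptor of LIGHT, and read -2.20, -2.58 and -2.71 against -3.95, -3.32 and -3.62. The groups were apart by about 0.6 units at their nearest. The change was -1.14 (SE 0.21, limma adjusted p 0.00567), and its second kept probe gave -1.10. Normexp gave a smaller change of -0.76 (limma adjusted p 0.00244).

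The other falls among receptors were smaller. Tnfrsf4 (OX40) and Tnfrsf18 (GITR), T cell costimulatory receptors whose probes lie 12.2 kb apart on chromosome 4, changed by -0.71 (limma adjusted p 0.00158) and -0.58 (limma adjusted p 0.00889). Ltbr, the lymphotoxin beta receptor, changed by -0.45 (limma adjusted p 0.00749). Tnfrsf12a, which encodes Fn14, the TWEAK receptor, changed by -0.43 (limma adjusted p 0.0135). These 4 changes lay between -0.32 and -0.05 with spike-in scaling and none was called there. The call of Tnfrsf12a was also lost with the slide as a block (limma adjusted p 0.0568), with median centring and without pre-miR-Control replicate 3.

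The remaining receptors were not called. Tnfrsf1b, the TNF receptor more typical of leukocytes, changed by 0.60 (limma adjusted p 0.0685), but its second kept probe gave -0.14, so its probes disagreed in direction. Under spike-in scaling the tested probe of Tnfrsf1b was called (change 0.98, limma adjusted p 0.00935). Tnfrsf19, a receptor of epithelial and stem cells, read 0.06, -0.15 and 0.03 against -0.94, 0.61 and -0.79. As in Ltb, replicate 2 was above all controls and the others below. Its change was -0.35 (limma adjusted p 0.504), and -0.84 without replicate 2 (limma adjusted p 0.00246). Tnfrsf11a, the RANK receptor, changed by -0.30 (limma adjusted p 0.101).

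**Figure D2:**
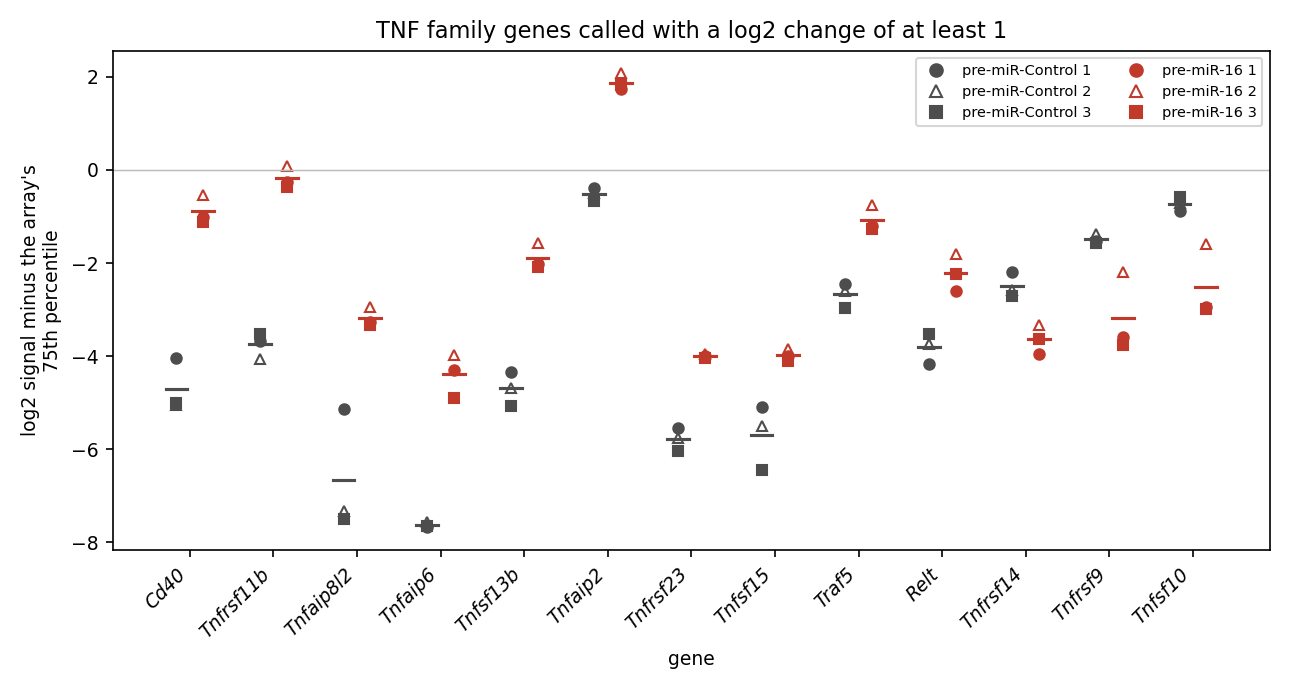
Log2 signal relative to the array's 75th percentile (vertical axis) on each of the 6 arrays for the 13 members called with a change of at least 1 log2 unit. Marker shapes give the replicate, bars the group mean, and open triangles replicate 2. In each gene the grey control points and red pre-miR-16 points do not overlap, from Cd40 with a change of 3.81 to Tnfsf10 with -1.78. No control array was well above background for Tnfaip6 and Tnfrsf23.

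The 7 TRAF adaptors, which join receptors to kinases and ubiquitin ligases, were all tested. Traf5 rose, Traf4 and Traf6 fell, and the other 4 were not called. That is 14.3% rises and 28.6% falls, near the 15.9% and 33.2% of all genes. Traf5, which serves CD40 and other costimulatory receptors, has its probe at chr1:191550149-191550208 (mm7, minus strand). It read -2.44, -2.61 and -2.97 in the controls and -1.21, -0.75 and -1.27 after pre-miR-16. The groups were more than 1 unit apart. The change was 1.6 (SE 0.20, limma adjusted p 0.00141), and it held in all 20 alternatives.

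Traf4, an epithelial TRAF, changed by -0.75 (limma adjusted p 0.00772), and its second probe gave -0.92. Traf6, which links CD40 and Toll-like receptors to NF-kB, changed by -0.44 (limma adjusted p 0.0217), but its second probe gave -0.09. Both calls were lost with spike-in scaling, as was that of Traf3ip1, an intraflagellar transport protein that binds TRAF3 (change -0.63, limma adjusted p 0.00999). With the slide as a block the call of Traf3ip1 was also lost (limma adjusted p 0.059). Traf6 kept its call in 14 of 20 alternatives, and lost it also with no filter, with the mean of kept probes and when replicate 2 or 3 of the controls or replicate 1 of pre-miR-16 was left out. Traf3, an inhibitor of the non-canonical NF-kB pathway, changed by 0.21 (limma adjusted p 0.093), and was called with spike-in scaling (0.59, limma adjusted p 0.0289). Changes of Traf1, Traf2 and Traf7 lay from -0.27 to -0.21, and Traf3ip2, the adaptor of the interleukin-17 receptor, changed by -0.16. None of these was called. Psmg2 changed by -0.13 (limma adjusted p 0.494).

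Of the 7 tested genes named as TNF alpha-induced proteins, 3 rose, Tnfaip8l2, Tnfaip6 and Tnfaip2 (42.9%, against 15.9% of all genes). None fell, against 33.2% of all genes (1 was lower at an unadjusted limma p under 0.05, Tnfaip1). The name reflects how the founding genes were found and not a shared function.

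Tnfaip2, also called M-Sec, takes part in forming thin tubes between cells and is high in myeloid cells. Its probe (chr12:108971166-108971225, mm7, plus strand) read -0.38, -0.50 and -0.67 in the controls and 1.73, 2.07 and 1.82 after pre-miR-16. It was bright on every array and the groups were more than 2 units apart. The change was 2.39 (SE 0.13, limma adjusted p 5.04e-05), and 2.24 with normexp.

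Tnfaip6 encodes TSG-6, a secreted hyaluronan-binding protein (probe at chr2:52063795-52063854, mm7, plus strand). It was not well above background in the controls and read -4.29, -3.97 and -4.89 after pre-miR-16. It was at least 1.91-fold higher after pre-miR-16 (limma adjusted p 0.00015), and normexp gave a change of 0.47 (limma adjusted p 0.0126). It too entered the test through the treated arrays alone. Tnfaip8l2 encodes TIPE2, a regulator of innate and T cell signalling. It read -5.14, -7.32 and -7.51 in the controls, of which 1 was well above background, and -3.26, -2.95 and -3.32 after pre-miR-16. The fitted change of 3.48 (SE 0.62, limma adjusted p 0.0054) rests on controls mostly not above background, and came to 0.87 with normexp (limma adjusted p 0.00312).

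Tnfaip3 encodes A20, the deubiquitinase induced by NF-kB that ends TNF signalling. It read 3.60, 3.51 and 3.68 in the controls and 3.72, 3.70 and 3.88 after pre-miR-16. The groups did not overlap, as in 61.4% of all genes, but the change of 0.17 (SE 0.10) was not called (limma adjusted p 0.187). Tnfaip1, Tnfaip8 and Tnfaip8l1 changed by -0.35, -0.03 and -0.44 and were not called.

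Across all the called members, 9 of 23 had a change over 1.5 times smaller with normexp. They were Cd40, Tnfsf13b, Relt, Tnfaip8l2, Tnfaip6, Tnfrsf23, Tnfsf15, Tnfrsf22 and Tnfrsf10b, all rises. The part of the normexp offset of 50 signal units, which makes log changes of dim probes smaller, was not tested apart from the background estimate.

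Pre-miR-16 replicate 2 differed from the mean of replicates 1 and 3 by over 1 log2 unit in 4 members (9.09%), against 5.10% of all genes. These were Ltb (by 1.83), Tnfrsf9 (1.48), Tnfrsf19 (1.48) and Tnfsf10 (1.38), all higher on replicate 2. Tnf was 0.87 higher there. Tnfrsf21 was lower by 0.79 (-0.79) and Tnfrsf1a by 0.66 (-0.66). In 37 of 44 members the differences within slides 1 and 2 had the same sign. None of the 7 with opposite signs was called. The lack of overlap in every called member fixes equal signs in advance, so this is no separate check. Tnf differed by -0.26 and 0.64 on the 2 slides, Ltb by -0.54 and 1.00, and Tnfrsf19 by -1.0 and 0.68. The array and the slide could not be separated, since slide 2 held no other pre-miR-16 array, and the part of either was not tested.

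**Figure D3:**
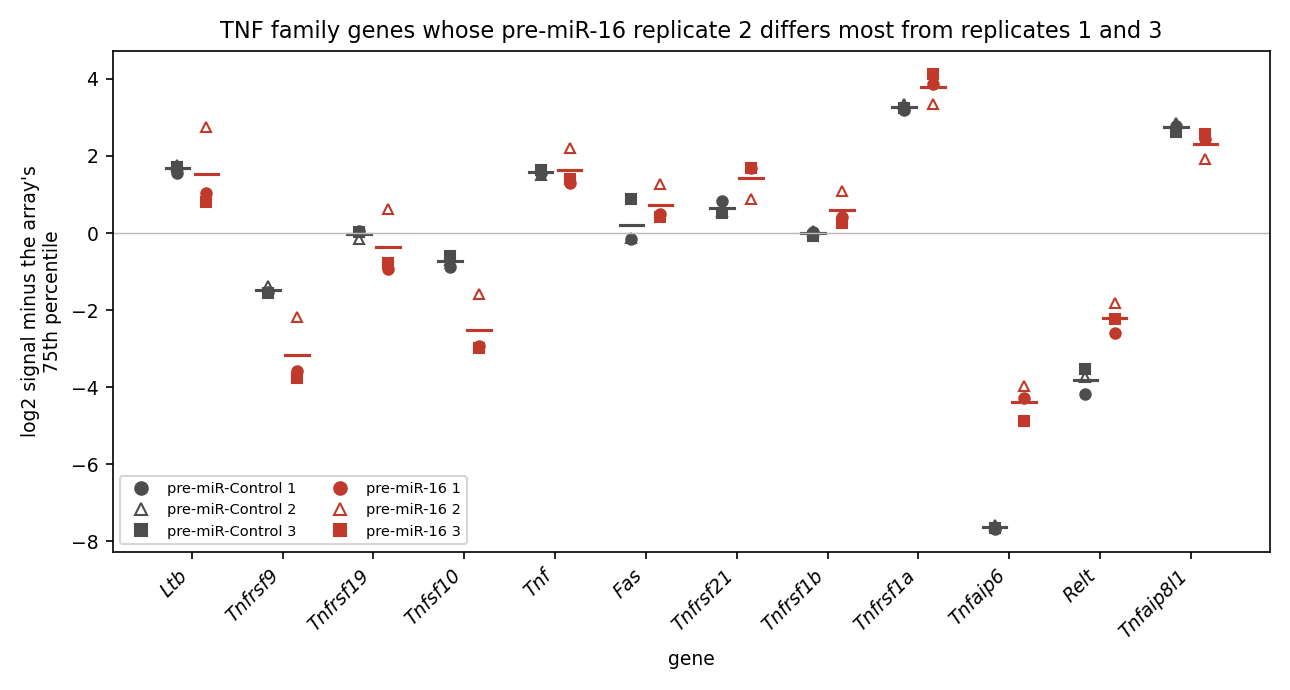
Log2 signal relative to the array's 75th percentile on each array for the 12 members in which pre-miR-16 replicate 2 (open red triangle) lies farthest from replicates 1 and 3. Bars are group means. In Ltb, Tnfrsf19 and Tnf the triangle is above all grey control points while the other red points are below them.

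**Figure D4:**
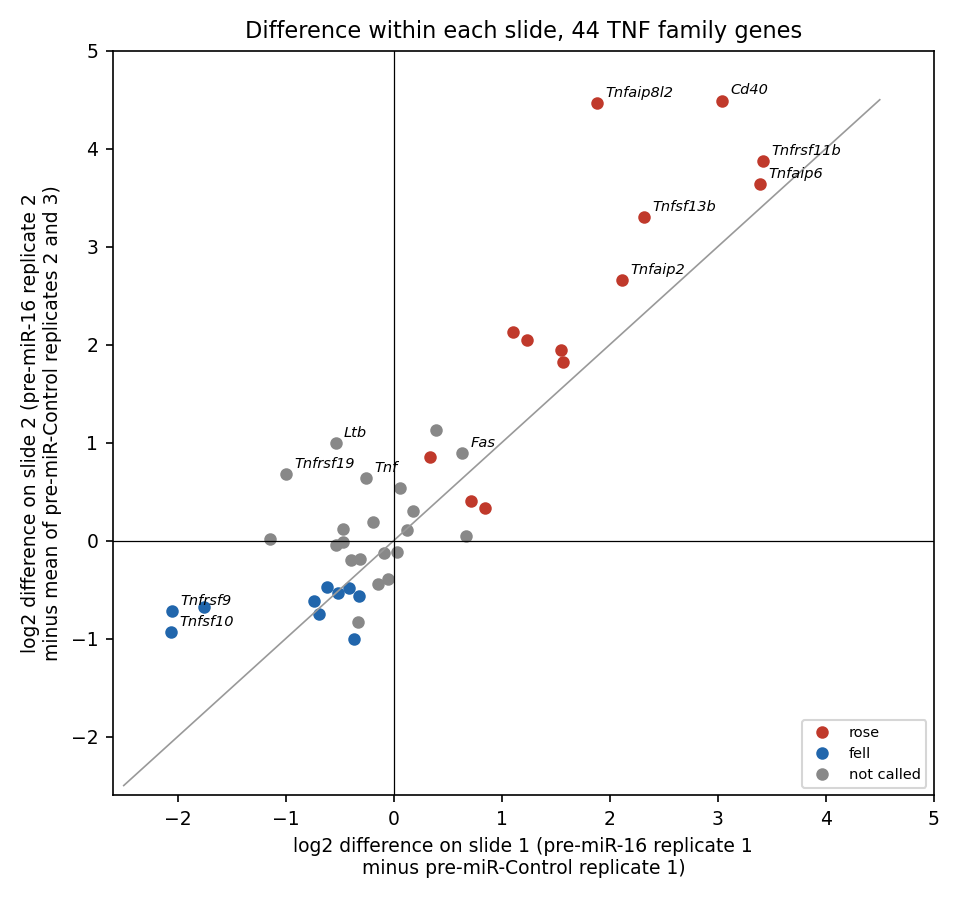
Log2 difference between pre-miR-16 and pre-miR-Control within slide 1 (horizontal axis) and within slide 2 (vertical axis), 1 point for each of the 44 members, coloured by call. The grey diagonal marks equal differences. Called members have the same sign on both slides, as their lack of overlap requires, while Ltb, Tnf and Tnfrsf19 lie in the upper left with opposite signs.

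Genes downstream of the receptors were read from a pair of lists. Of the adaptors and kinases that carry TNF receptor signals, 35 of 36 were tested (Rel was not), 5 rose and 12 fell, which is 14.3% and 34.3%, against 15.9% and 33.2% of all genes. Their median change was -0.15. Spike-in scaling gave 8 rises and no falls by limma (1 was lower at an unadjusted p under 0.05), so each of the 12 falls depended on the scaling. Ripk3, the kinase of necroptosis, read -1.17, -1.28 and -1.57 in the controls and 2.02, 2.34 and 2.05 after pre-miR-16, a change of 3.48 (SE 0.15, limma adjusted p 1.94e-05). Its groups were more than 3 units apart. Ikbke, an IkB kinase-related enzyme, changed by 1.48 (limma adjusted p 5.04e-05). Mapk8, which encodes JNK1, changed by -1.0 (limma adjusted p 0.00164), and Rbck1, a subunit of the linear ubiquitin ligase, by -0.71 (limma adjusted p 0.00194).

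Of the genes that TNF is known to induce, 25 of 26 were tested (Sele was not). Of the 25, 17 rose (68%) and 2 fell (8%), against 15.9% and 33.2% of all genes. The median change of the 25 was 1.86, against -0.20 over all genes and -0.08 in the family. Tnfaip3 belongs here too but is counted as a member, and Birc3 and Nfkbia are in both lists. Ccl2, a monocyte chemokine, read -0.74, -0.80 and -1.61 in the controls and 5.48, 5.85 and 5.31 after pre-miR-16, a change of 6.60 (limma adjusted p 1.71e-05). No control array came near a treated array. Ccl7, a related chemokine, changed by 6.67, Csf1, the macrophage growth factor, by 3.93, and Il6 by 4.33. The falls, named after their values were seen, were Plau, the urokinase (-2.34, limma adjusted p 0.00156), and Irf1, an interferon-response factor (-0.74, limma adjusted p 0.0323). Irf1 lost its call with spike-in scaling (limma adjusted p 0.288), with the slide block (0.082) and with the mean of kept probes (0.111). Several classic NF-kB targets were not called, with changes of 0.03 in Nfkbia, -0.16 in Birc3, -0.25 in Icam1 and 0.67 in Vcam1.

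**Figure D5:**
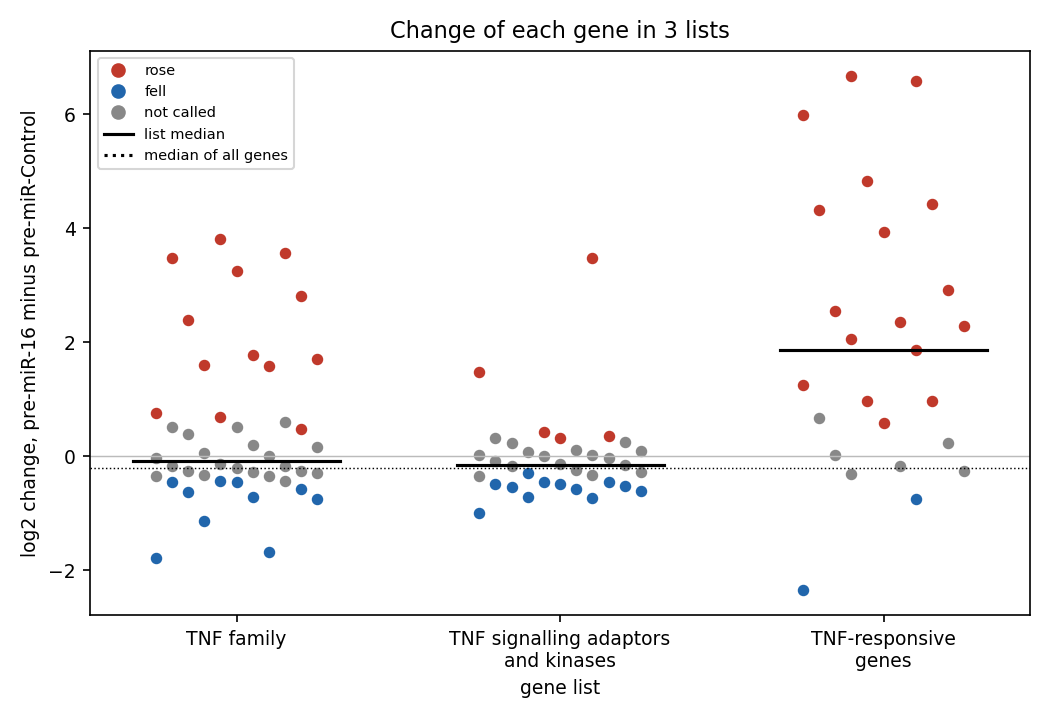
Log2 change (pre-miR-16 minus pre-miR-Control) of each tested gene of the TNF family (44), the TNF signalling adaptors and kinases (35) and the TNF-responsive genes (25), coloured by call. Black bars are list medians (-0.08, -0.15 and 1.86) and the dotted line is the median of all genes (-0.20). Horizontal spread within a list has no meaning.

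Markers of other cell types moved with these genes. Of 12 macrophage and monocyte markers, 11 rose (91.7%, against 15.9% of all genes), with a median change of 4.24. The log2 of their summed level ran from 4.01 to 4.45 in the controls and from 7.74 to 8.02 after pre-miR-16. Cd14 (mean 3.21) and Lyz2 (2.74) made up most of that sum in the controls, and Lyz2 (7.60) most of it after pre-miR-16. The sum hardly reflects the other macrophage markers. Mrc1 was well above background on none of the control arrays, Msr1, Fcgr1 and Itgam on 1 of 3, and Adgre1, C1qa and C1qc on 2 of 3. All of these entered the test through the treated arrays alone, so their calls are no independent support. Csf1r was the macrophage marker not called (change -0.52, limma adjusted p 0.142). Of 11 fibroblast markers, 10 rose (90.9%, median 3.81), and the summed level ran from 8.62 to 8.85 and from 9.20 to 9.51. Lum and Fap were well above background on 1 and 2 of 3 control arrays and likewise entered through the treated arrays alone. The exception, Dcn, was the brightest of the 11 and changed by -0.07 (limma adjusted p 0.669). Its control mean of 8.68 made up most of the summed level of the controls, so that sum hardly reflects the other fibroblast markers there. Ptprc, the marker of all leukocytes, was not well above background in the controls and at least 12-fold higher after pre-miR-16 (limma adjusted p 1.27e-05). Since Ptprc entered the test through the treated arrays alone, that p is no independent support. Among the other leukocyte and lymphocyte markers, Cd52, well above background on 2 of 3 control arrays, rose. Cd3e, a T cell marker, was not called.

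The 12 luminal epithelial markers, which check the labelled cell type, were well above background on every array. Of these, 10 fell (83.3%, against 33.2% of all genes, median -0.76), among them Krt8, Krt18 and Epcam. With spike-in scaling 3 fell. The summed level of the 12 ran from 9.97 to 10.2 in the controls and from 9.17 to 9.26 after pre-miR-16. Of 7 basal markers tested, the contractile genes Acta2, Myh11, Cnn1 and Tagln rose, the keratins Krt14 (-1.96) and Krt17 (-1.83) fell and Krt5 was not called. That is 57.1% rises and 28.6% falls, against 15.9% and 33.2% of all genes. Myh11 was well above background on 2 of 3 control arrays. The summed level of the 7 ran from 7.04 to 7.41 and from 8.73 to 9.24. Krt17 (mean 6.65) made up most of it in the controls, and Acta2 (7.75) with Tagln (7.60) most of it after pre-miR-16. The sum thus does not follow the basal keratins. Of 6 endothelial markers, 1 was tested, Vwf, which was not called, with summed levels of 3.87 to 4.07 and 3.32 to 4.30. In such bulk cultures, more cells of a type and more RNA per cell cannot be told apart. The part of these cell types in the changes of Cd40, Tnfsf13b, Tnfaip2 and the other members was not tested.

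The 16 members too dim to test were Tnfsf4, Tnfsf8, Tnfsf11, Tnfsf12, Tnfsf14, Tnfsf18, Cd70 and Fasl among the ligands, Tnfrsf8, Tnfrsf13b, Tnfrsf13c, Tnfrsf17, Tnfrsf26 and Cd27 among the receptors, and Tnfaip8l3 and Traf3ip3. Thus the death ligand Fasl, the RANK ligand Tnfsf11 and the TWEAK gene Tnfsf12 were dim while their receptors Fas, Tnfrsf11a and Tnfrsf12a were measured. In 9 of the 16, no probe was well above background on any array.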

How the data were processed

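Per the file headers, the authors' scanner files hold a processed intensity per spot, background-subtracted and detrended within each array by Agilent Feature Extraction 9.5.3.1, with annotation on mm7 (NCBI35). The deposited series matrix holds log2 values of the same arrays, of unstated normalization, and served as an alternative. All its columns were matched to samples.

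Values were computed with R 4.3.3, limma 3.58.1. Control and outlier spots (74 to 113 per array) were left out. The log2 signal minus that of the array's 75th percentile was averaged per probe. A probe was kept (23827 in all) if every array of either group had at least 0.5 of its spots well above background, and the brightest probe of each gene was tested with lmFit and eBayes. Names came by RefSeq accession (22951 probes), current symbol (6659) or file name (11564). Arrays are few, which limits precision: an exact test of 3 against 3 cannot go below p = 0.10. The p-values compare the groups with the spread among these cultures.

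Every member is accounted for. Those called, without overlap and changed by at least 1 log2 unit, are given on each array, the others by change, and up to 4 called genes of each pathway list are named by smallest p. The members and lists were chosen with earlier results of these data known. Alternatives covered scaling, background correction, filters, probe choice, slide and replicate blocks and left-out arrays. Replicate numbers were not used to pair the cultures in the main test. The value of a lymphocyte marker is not reported here.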

Additional observations from a re-analysis of the deposited data

Results flagged for a closer look

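Probes outside the test, too dim on at least 1 array of each group, gave signal above background after pre-miR-16 and on no control array. Some of these probes overlapped between the groups, such as that of Traf3ip3, with 2 pre-miR-16 arrays well above background. The 3 cases below were picked because the treated arrays lay above the controls. Among all genes tested, the groups did not overlap, in either direction, in 61.4%. The differences are on the log2 scale and, with the controls below background, have no fold. Tnfsf14, the gene of LIGHT, differed by 1.07, with replicate 2 alone of the pre-miR-16 arrays well above background. Tnfsf8, the CD30 ligand gene, differed by 1.17, with only replicate 2 well above background (-4.97, against -6.94 and -7.28 on the others). The second probe of Tnfrsf13b, the gene of the BAFF and APRIL receptor TACI, differed by 2.43, with 2 of 3 pre-miR-16 arrays well above background, while its first probe overlapped between groups and differed by 0.34.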

How the results depend on the processing

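Family rises ran from 9 to 17 over the alternatives, within 1.5 times of 13. Family falls (10) came to 3 with spike-in scaling, 18 with array weights, 6 at an adjusted p under 0.01 and 3 for a log2 change of at least 1. Leaving out each array gave 11 to 14 rises and 8 to 15 falls. Adaptor and kinase rises (5) came to 2 with median centring, 8 with spike-in scaling, 3 with no filter on dim probes, 2 with a slide block, 2 at an adjusted p under 0.01, 2 for a change of at least 1, and 2 to 4 with an array left out. Their falls (12) came to 0 with spike-in scaling, 6 at an adjusted p under 0.01, 0 for a change of at least 1, and 7 to 14 with an array left out. Falls of TNF-responsive genes (2) came to 5 with array weights, to 1 with quantile normalization, spike-in scaling, no filter, the mean of kept probes, the slide block, an adjusted p under 0.01 and a change of at least 1, and 1 to 5 with an array left out. Their rises (17) ran from 15 to 18 with an array left out. The causes were not tested beyond what these settings are. Dim probes limit Tnfaip6, Tnfrsf23, Tnfsf15 and Tnfaip8l2, whose changes depend on the background correction with its offset.

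Deviations of same-numbered arrays correlated at -0.088, -0.026 and -0.003. With pre-miR-16 replicates 1 and 2 exchanged, the first 2 pairs correlated at 0.063 and 0.022. Neither numbering gave a sign of pairs, but the groups shared slides unevenly, so whether the cultures were prepared in pairs cannot be told. With the replicate block, 12 members rose and 10 fell, and adaptor rises came to 3. An added block with pre-miR-16 replicates 1 and 2 exchanged, chosen after seeing the data because the matrix orders them so, gave 12 and 10, 3 adaptor rises and 1 fall of TNF-responsive genes.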

Other observations

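In the deposited series matrix, pre-miR-16 replicates 1 and 2 followed each other's scanner file. Over probes, each correlated at 0.999 with the other's file and at 0.985 with its own. The array called replicate 2 here is therefore replicate 1 by the matrix. Both belong to the same group, so the exchange does not touch the comparison without a block, though with the replicate block it changes some calls, such as those of Tnfrsf21 and Tnfrsf10b. It leaves the number of the array that stood apart in Ltb, Tnf, Tnfrsf9, Tnfrsf19 and Tnfsf10 uncertain.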
